A study of Mus musculus with 2 samples.

Results

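The spliceosome, SR and hnRNP proteins were taken as the 195 probes, of 41174 gene probes on the array, and the 95 gene names, of 27845, whose gene name begins with Sfrs, Srsf, Hnrp, Hnrnp, Snrp, Sf3, Prpf, U2af, Lsm, Tra2, Clk or Srpk, leaving out Clock, Fusip1, Sfrs13a and Srsf10. The rule itself uses names and no measured value, though it was set with earlier results of these data known. Sfrs and Hnrp are the older forms of Srsf and Hnrnp. A probe was counted as measured when it was in the deposited value table, and 89 probes of 68 genes were. By role they are 39 measured probes of core snRNP proteins, 19 of SR and SR-related proteins, 27 of hnRNP proteins and 4 of the kinases that phosphorylate SR proteins. The names also bring in proteins that act outside the spliceosome: Lsmd1 (now Naa38) is a subunit of an N-terminal acetyltransferase, Lsm10 belongs to the U7 snRNP of histone mRNA processing, and Lsm14b is found in cytoplasmic RNA granules.

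RNA came from pancreatic lymph nodes of female NOD mice aged 16 weeks, a strain with spontaneous autoimmune diabetes, and was read on 2-colour Agilent arrays. Each of 2 hyperglycemic mice, with blood glucose above 500 mg/dl, was labelled with Cy5 on an array of its own (n = 2). The Cy3 channel of both arrays held 1 pool of 2 euglycemic mice, with blood glucose below 200 mg/dl. All values are log2 ratios of the hyperglycemic mouse over the pool, so a positive value is a higher signal in the hyperglycemic mouse. No drug, transgene or deletion is named for either group. The pool is a single control sample, whose own spread between mice is unknown. With the hyperglycemic RNA in Cy5 on both arrays, a dye effect of a probe and a difference between the groups cannot be told apart.

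Introns are removed from pre-mRNA by the spliceosome, an assembly of U1, U2, U4, U5 and U6 small nuclear ribonucleoproteins (snRNPs), each an RNA with a ring of Sm or LSm proteins and particle-specific proteins. SR proteins, which carry arginine and serine repeats, bind exonic sequences and help recruit U1 and U2 to weak splice sites, whereas hnRNP proteins coat nascent transcripts and often oppose exon inclusion. Lymphocytes use these regulators in the alternative splicing of surface receptors when they are activated, and SR and hnRNP genes regulate their own mRNAs through splicing.

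The signal behind the values was uneven between channels. Over all gene spots, Cy3 had medians of 234 and 81.2 on arrays 1 and 2 with backgrounds of 31 and 31.5, and Cy5 had medians of 37.7 and 38.2 with backgrounds of 35. The probes described here were brighter than the array at large. Of the 195 probes, 108 and 186 were well above background in Cy3 on arrays 1 and 2, and 91 and 100 were in Cy5. Those in the value table made up 45.6% of the 195, against 12.3% of all gene probes. The scanning software's own error of a log2 ratio ran from 0.20 to 0.43 for the 89 probes in mouse 1 and from 0.20 to 0.36 in mouse 2. None of their spots was saturated.

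The 106 probes without a value were mostly dim in Cy5. On both arrays 94 of them were not well above background in the hyperglycemic channel, and 75 were well above background only in Cy3 of array 2. For 27 genes no probe was measured. Among them were Sfrs3 and Sfrs14 of the SR group, U2af2, which recognises the polypyrimidine tract, the kinases Clk2, Srpk1, Srpk2 and Srpk3, the Sm protein genes Snrpb and Snrpn, and Hnrpl, Hnrpll and Hnrpul2. In 10 probes the pool was well above background on both arrays and the hyperglycemic mice on neither. From scanner signals, background-corrected and loess-normalized, none of the 10 was called. That of Prpf3, a U4/U6 protein, had mean log2 signals of 8.41 in the pool and 8.21 in the hyperglycemic mice (limma adjusted p = 0.432), and that of Prpf38a had 8.31 and 8.14 (limma adjusted p = 0.462). No fold is given for these probes.

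The stretches upstream of the 3 genes with the highest and of 2 genes with the lowest mean ratios show what kind of promoter these genes have. RefSeq (GRCm38.p6, a later build than that of the probe positions) gave the 250 bases before the first listed start for 81 of the 96 current gene symbols. The last 150 bases before the start are printed 5′ to 3′ on the gene's strand with motif matches on either strand in capitals. The motifs are the SP/KLF box GGGCGG, the ETS motif CCGGAAG and the CCAAT box, and neighbouring matches can run together or overlap. Hnrnpdl (Hnrpdl in the files) lies at chr5:100039223-100039372 on the minus strand, Clasrp (Sfrs16) at chr7:19604487-19604636 on the minus strand, Srsf5 at chr12:80945349-80945498 on the plus strand, Srsf1 at chr11:88047223-88047372 on the plus strand and Hnrnpa2b1 at chr6:51469895-51470044 on the minus strand.
Hnrnpdl: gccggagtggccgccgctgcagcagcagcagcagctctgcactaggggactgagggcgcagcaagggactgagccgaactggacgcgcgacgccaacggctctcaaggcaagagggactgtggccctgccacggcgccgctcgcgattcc
Clasrp: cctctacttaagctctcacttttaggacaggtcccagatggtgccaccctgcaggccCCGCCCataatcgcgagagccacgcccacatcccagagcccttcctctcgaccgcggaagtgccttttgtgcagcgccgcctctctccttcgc
Srsf5: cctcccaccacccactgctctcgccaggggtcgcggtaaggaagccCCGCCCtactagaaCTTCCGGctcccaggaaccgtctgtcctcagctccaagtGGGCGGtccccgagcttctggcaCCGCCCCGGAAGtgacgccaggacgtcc
Srsf1: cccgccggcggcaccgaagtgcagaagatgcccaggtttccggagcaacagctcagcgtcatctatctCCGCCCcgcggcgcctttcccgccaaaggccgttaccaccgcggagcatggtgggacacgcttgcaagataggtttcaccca
Hnrnpa2b1: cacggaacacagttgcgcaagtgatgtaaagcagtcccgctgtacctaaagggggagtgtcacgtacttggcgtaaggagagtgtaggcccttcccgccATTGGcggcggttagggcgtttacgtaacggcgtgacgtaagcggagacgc
Of the genes called higher below, the stretch of Hnrnpdl holds 0 matches, that of Clasrp holds 1 GGGCGG match, and that of Srsf5 holds 2 CCGGAAG and 3 GGGCGG matches. That of Srsf1, called lower, holds 1 GGGCGG match, and that of Hnrnpa2b1, also called lower, holds 1 CCAAT match. Over 250 bases GGGCGG was found in 53 of the 81 promoters (65.4%), against 32.9% of 27025 promoters of all genes, noncoding genes included. CCGGAAG was found in 20 of 81 (24.7%), against 7.05%. The CCAAT box was found in 40.7%, against 34.5%. The cAMP response element TGACGTCA was found in 4.94%, against 1.62%, and the E-box CACGTG in 8.64%, against 6.05%. Between the called groups the shares were 69.6% of 23 genes called higher and 81.8% of 11 called lower for GGGCGG, and 26.1% and 9.09% for CCGGAAG. A match describes the letters alone, and these shares were not tested.

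The comparison asks which splicing genes differed in the pancreatic lymph node between hyperglycemic and euglycemic mice. Members of every family were called in both directions. Of the 89 measured probes 29 were called higher (32.6%), where 25.1% of all 5072 measured gene probes were, and 16 were called lower (17.98%), where 18.4% of all were. The other 44 were not called. A call is an adjusted p under 0.05 in limma, against a ratio of 0, over all 5072 probes. By gene, 25 of 68 had only higher calls, 13 had only lower calls, Sfrs10 had 1 of each, and 29 had none.

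The number of calls turned on the source of the ratios and on the set of probes fitted. From scanner signals with another background correction and loess, 4 of 110 probes were called higher, where 4.77% of all 8804 probes tested were, and 0 were called lower, where 0.488% of all were. In that fit 90.7% of all calls were higher, against 57.8% in the deposited ratios, and 29 of the 110 probes (26.4%) had an unadjusted p under 0.05, where 19.5% of all had. The 4 genes called there were Sfrs16, Hnrpm, Hnrph3 and Hnrpk, all called higher in the deposited ratios too. From Agilent's processed signals of a wider set of probes, limma called 0 of 110 in either direction, and 40 (36.4%) had an unadjusted p under 0.05, where 38.4% of all 8810 probes had. The measured probes have nearly the same ratios there as in the deposited values, and the set of probes fitted differs.

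**Figure D1:**
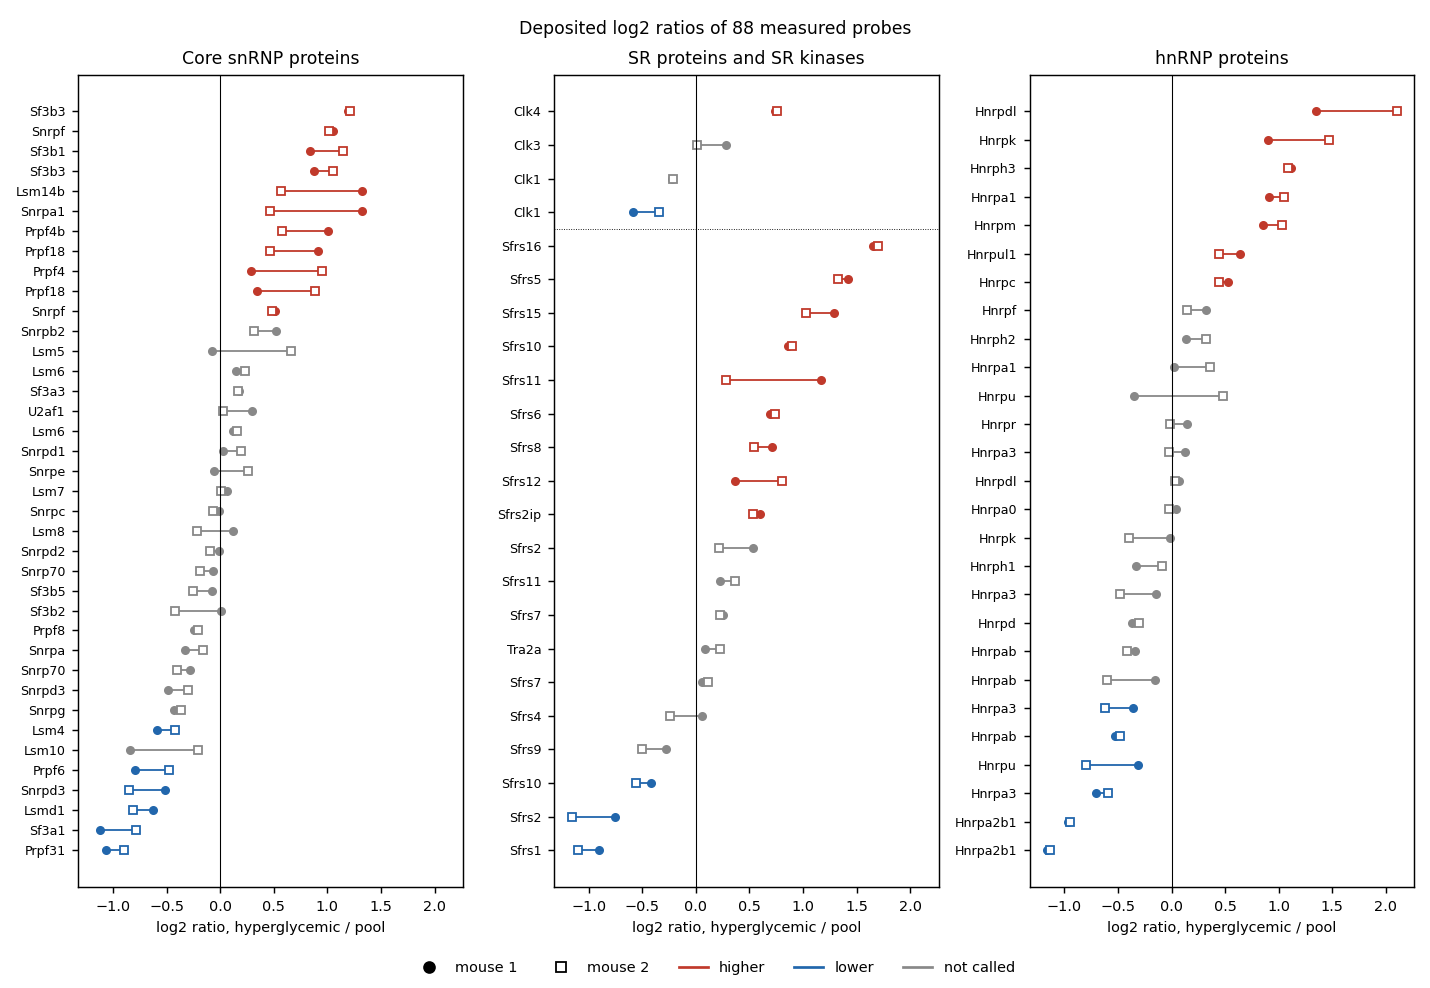
Deposited log2 ratios (x axis) of 88 measured probes by gene (y axis), with filled circles for mouse 1, open squares for mouse 2 and a line between them, red for probes called higher, blue for lower and grey for not called. A gene named more than once has several probes. The ratios run from -1.15 for Hnrpa2b1 to 1.72 for Hnrpdl as means of both mice, and each panel holds probes on both sides of 0.

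The ratios of the mice resembled each other for most of these probes. Both were taken against the same pool with the same dyes, so their agreement is not independent evidence. Of the 89 probes 80 had the same sign in both mice (89.9%, against 82.0% of all 5072), and the SD between mice had a median of 0.13, against 0.16 over all probes. Beyond 2-fold in both mice were 7 probes upward and 1 downward, and 269 and 145 of all 5072. As medians over probes, the SR group was at 0.37 in mouse 1 and 0.28 in mouse 2, the core snRNP proteins at 0.03 and 0.02, the hnRNP proteins at 0.02 and -0.02, and all gene probes at 0.08 and 0.03. The SR median was thus above that of the core proteins by 0.34 and 0.26 and above that of the hnRNP proteins by 0.34 and 0.30 in mice 1 and 2. With 2 mice no test of these differences was made, since probes are not replicates. The SR median, 0.38 over the means of both mice, lay between 0.01 and 0.57 under 11 of 12 other settings and was -0.26 with scanner signals centred on their median. Its gap to the hnRNP median nearly closed from scanner signals (0.054 against 0.045). It did so too with both channels required (0.10 against 0.094) and without a filter (0.01 against -0.0125). In the other settings the gap stayed wider. The core median (0.10) and the hnRNP median (0.05) changed sign under several settings.

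Of the 19 measured SR probes 9 were called higher (47.4%), 3 lower (15.8%) and 7 not. Over all 5072 measured gene probes the shares were 25.1% higher and 18.4% lower. Higher calls made up 30.8% of core snRNP probes and 25.9% of hnRNP probes. The largest ratio of the SR probes belonged to Sfrs16 (now Clasrp), an SR-rich protein that binds the kinase Clk4. Its processed signals in Cy3 and Cy5 were 2753 and 8672 on array 1 and 4576 and 14870 on array 2. The ratio was 1.66 in mouse 1 and 1.70 in mouse 2 (mean 1.68 ± 0.03 SD, 3.20-fold, limma adjusted p = 0.00077, probe at mm8 chr7:18739577-18739636). Both mice stood alike above the pool, and the scanner-signal mean was 1.59.

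Sfrs5 (Srsf5, SRp40) is a classical SR protein. It was at 1.42 and 1.33 (mean 1.37 ± 0.06 SD, 2.59-fold, limma adjusted p = 0.0011, chr12:81865567-81866216). In the scanner signals its mean was 0.36 and it was not called. Sfrs15 (Scaf4), which binds the C-terminal domain of RNA polymerase II, was at 1.29 and 1.03 (mean 1.16 ± 0.18 SD, limma adjusted p = 0.00208). Sfrs6 (Srsf6, SRp55), a classical SR protein, was at 0.69 and 0.74 (limma adjusted p = 0.00923). On these called probes the genes were above the pool in each mouse. Sfrs8 (Sfswap), the vertebrate relative of suppressor of white apricot, was at 0.71 and 0.54 (limma adjusted p = 0.0166). Sfrs12 (Srek1), a regulatory SR protein, was at 0.37 and 0.80 (limma adjusted p = 0.0301). Sfrs2ip (Scaf11), an SR-related partner of Srsf2, was at 0.59 and 0.54 (limma adjusted p = 0.0222). Sfrs11 (Srsf11, p54) was at 1.17 and 0.28 on its upstream probe (limma adjusted p = 0.0356), with the mice 0.63 apart as an SD, and at 0.23 and 0.36 on the downstream probe, not called. The call of Sfrs12 was lost when the deposited ratios were given a further loess.

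The SR genes called lower include both founding members of the family. Sfrs1 (Srsf1, SF2/ASF) was at -0.90 and -1.10 (mean -1.001 ± 0.14 SD, 2.00-fold lower, limma adjusted p = 0.00309, chr11:87867243-87867302). Its signals were 1286 in Cy3 and 690 in Cy5 on array 1, and 2310 and 1076 on array 2. Sfrs2 (Srsf2, SC35) was at -0.75 and -1.16 on its downstream probe (mean -0.95 ± 0.29 SD, limma adjusted p = 0.00479, chr11:116665976-116666002). On these called probes both genes were below the pool in each mouse. The upstream probe of Sfrs2, 249 bases away between upstream ends, was at 0.54 and 0.22 and was not called (limma adjusted p = 0.0988). Sfrs9 (-0.28 and -0.51), Sfrs4 (0.06 and -0.24), Tra2a (0.09 and 0.22) and both probes of Sfrs7 (0.06 and 0.12, and 0.26 and 0.22) were not called.

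The SR group was split by structure after its values had been seen. Of 9 probes of the classical SR proteins, 2 were called higher (22.2%) and 2 lower (22.2%), with a median of 0.09. Of 10 probes of SR-related and Tra2 proteins, 7 were called higher (70%) and 1 lower (10%), with a median of 0.60. The shares over all measured gene probes were 25.1% higher and 18.4% lower, near those of the classical SR proteins. The split carries no test.

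Sfrs10 (Tra2b), which activates exons with purine-rich enhancers, had a call in each direction. Its RefSeq probe was at -0.42 and -0.56 (mean -0.49 ± 0.10 SD, limma adjusted p = 0.0387, chr16:22161559-22161618). Its cDNA-clone probe lay 12764 bases upstream along the gene and was at 0.86 and 0.90 (mean 0.88 ± 0.03 SD, limma adjusted p = 0.00438, chr16:22174323-22174382). The clone probe bears the array's name Sfrs10 and was not matched to the current symbol Tra2b. Neither probe overlapped the other's range over mice. The lower call was lost when the variance was modelled on intensity.

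Of the SR kinases, which phosphorylate SR proteins and release them from nuclear speckles, 4 of 19 probes were measured. Among these, 1 was called higher (25%, against 25.1% of all gene probes), 1 lower (25%, against 18.4%) and 2 not. Clk4 was at 0.74 and 0.75 (mean 0.75 ± 0.01 SD, limma adjusted p = 0.00801). Clk1 was at -0.59 and -0.34 on 1 probe (limma adjusted p = 0.049) and at -0.22 in both mice on the other, which was not called. Clk3 was at 0.28 and 0.01 and was not called.

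Among the core snRNP proteins 12 of 39 measured probes were called higher (30.8%), 6 lower (15.4%) and 21 not. Over all 5072 measured gene probes the shares were 25.1% higher and 18.4% lower. The Sm proteins form the ring around the U1, U2, U4 and U5 RNAs. Of 8 Sm probes 2 were called higher (25%), both of Snrpf (SmF), and 1 lower (12.5%), of Snrpd3 (SmD3). The probes of Snrpf were at 1.06 and 1.01 downstream (limma adjusted p = 0.00259) and at 0.51 and 0.49 upstream (limma adjusted p = 0.0341), 5498 bases apart. Those of Snrpd3 were at -0.51 and -0.85 (limma adjusted p = 0.0148) and at -0.48 and -0.30, not called. The proteins are built into the ring in equal numbers, and their measured transcripts lay on both sides of 0. Snrpg was at -0.43 and -0.36 (0.25 as a mean in the scanner signals), Snrpe at -0.06 and 0.26 and Snrpd2 at -0.01 and -0.09, none of them called.

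LSm proteins form the corresponding ring of the U6 RNA. Of 9 LSm probes 1 was called higher (11.1%, against 25.1% of all gene probes) and 2 lower (22.2%, against 18.4%). Only Lsm4 among those called is a ring protein. It was at -0.59 and -0.42 (limma adjusted p = 0.0348). The other lower call was Lsmd1, at -0.63 and -0.81 (limma adjusted p = 0.00991), and the higher call was Lsm14b, at 1.33 and 0.57 (limma adjusted p = 0.0101). Lsm5 was at -0.07 and 0.66, so that the mice fell on opposite sides of 0, and Lsm6, Lsm7 and Lsm8 lay between -0.22 and 0.23 in each mouse.

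The U1 and U2 snRNPs recognise the 5′ splice site and the branch point. Of their 14 probes 4 were called higher (28.6%, against 25.1% of all gene probes), 1 lower (7.14%, against 18.4%) and 9 not. The proteins of U1 itself were not called: Snrp70 was at -0.29 and -0.40 and at -0.07 and -0.18 on its probes, Snrpa at -0.33 and -0.16 and Snrpc at -0.01 and -0.07. The calls were in U2. Sf3b1, which binds the branch region, was at 0.84 and 1.15 (mean 0.99 ± 0.22 SD, 1.99-fold, limma adjusted p = 0.00364, chr1:54956802-54959071). Sf3b3, its partner in the SF3b complex, was at 1.19 and 1.21 (2.30-fold, limma adjusted p = 0.00158) and at 0.87 and 1.06 (limma adjusted p = 0.00347) on clone-derived probes. On these called probes both genes were about 1 log2 unit above the pool in each mouse. Outside the value table, in Agilent's processed ratios, a probe of Sf3b1 was at -0.58 and -1.64 and a probe of Sf3b3 at -0.69 and -0.20. Those ratios rest in part on signals near background. Snrpa1, the U2 A′ protein, was at 1.33 and 0.47 (limma adjusted p = 0.0156), and its call was lost after a further loess. Sf3a1, of the SF3a complex that docks on SF3b, was lower at -1.12 and -0.79 (mean -0.95 ± 0.23 SD, 1.93-fold lower, limma adjusted p = 0.0043, chr11:4080333-4080392). Sf3a3, Sf3b2, Sf3b5, Snrpb2 and U2af1 were not called, with means between -0.21 and 0.42.

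The measured probes of the PRPF proteins, named after yeast pre-mRNA processing mutants, were nearly all called. Of 27 probes 8 were measured. Of these, 5 were called higher (62.5%, against 25.1% of all gene probes), 2 lower (25%, against 18.4%) and 1 was not called. The SD between mice had a median of 0.30, against 0.16 over all probes. Higher calls were made for the kinase Prpf4b at 1.00 and 0.57 (limma adjusted p = 0.00995), both probes of the second-step factor Prpf18 and the U4/U6 protein Prpf4 at 0.28 and 0.95 (limma adjusted p = 0.0389). Prpf18 was at 0.91 and 0.46 (limma adjusted p = 0.0172) and at 0.34 and 0.88 (limma adjusted p = 0.0307) on probes 34 bases apart between centres. On the first probe mouse 1 was the higher, and on the second mouse 2 was. After a further loess the first probe was at 0.33 and lost its call. The lower calls were proteins that hold the U4/U6.U5 tri-snRNP together. Prpf31 was at -1.06 and -0.90 (mean -0.98 ± 0.11 SD, 1.97-fold lower, limma adjusted p = 0.00318, chr7:3244217-3244276). Prpf6 was at -0.79 and -0.48 (limma adjusted p = 0.0186). Prpf8, the scaffold of the catalytic core, was at -0.24 and -0.20 and was not called (limma adjusted p = 0.271).

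Of the 27 hnRNP probes 7 were called higher (25.9%), 6 lower (22.2%) and 14 were not called, shares near those of all gene probes. The lowest mean ratio of all 89 probes belonged to Hnrpa2b1, an abundant RNA-binding protein that acts in splicing and RNA sorting. Its probes, 1456 bases apart, were at -1.16 and -1.13 (mean -1.15 ± 0.02 SD, 2.21-fold lower, limma adjusted p = 0.00183, chr6:51392376-51392436) and at -0.97 and -0.95 (mean -0.96 ± 0.01 SD, limma adjusted p = 0.00323, chr6:51390921-51390980). On the first, the Cy3 and Cy5 signals were 2544 and 1137 on array 1 and 3605 and 1647 on array 2. Both probes were lower in both mice by nearly the same amount. From the scanner signals their means were -0.49 and -0.51, and neither was called. Hnrpu, a scaffold protein that binds chromatin as well as RNA, was at -0.31 and -0.80 (limma adjusted p = 0.0392) and, on a probe that was not called, at -0.35 and 0.48. Hnrpab was at -0.53 and -0.48 on the probe called lower (limma adjusted p = 0.0326), and its other probes had means of -0.38 and were not called. Hnrpa3, a relative of Hnrpa1, had 4 measured probes. From upstream to downstream they were at -0.15 and -0.48, at -0.36 and -0.62 (limma adjusted p = 0.0424), at -0.70 and -0.59 (limma adjusted p = 0.014) and at 0.13 and -0.02, so that the lower calls were on the middle probes. The called probe at -0.36 and -0.62 was at 0.63 and the Hnrpab probe called lower was at 0.36 in the scanner signals, on the other side of 0.

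Of the higher calls the largest was Hnrpdl, a relative of the AU-rich element binding protein Hnrpd. It was at 1.34 and 2.10 on its upstream probe (mean 1.72 ± 0.54 SD, 3.30-fold, limma adjusted p = 0.00141, chr5:100275239-100276417), with Cy3 and Cy5 signals of 1490 and 3780 on array 1 and of 2525 and 10839 on array 2. Mouse 2 was the higher. The downstream probe, at 0.07 and 0.03, was not called (limma adjusted p = 0.817). Hnrpk, a poly(C)-binding protein, was at 0.90 and 1.47 downstream (mean 1.18 ± 0.40 SD, 2.27-fold, limma adjusted p = 0.00309, chr13:58400960-58401019) and, on the upstream probe, at -0.02 and -0.40, not called. Hnrph3 was at 1.11 and 1.09 (2.14-fold, limma adjusted p = 0.00211), and Hnrpm at 0.85 and 1.03 (1.92-fold, limma adjusted p = 0.00372). Hnrpk, Hnrph3 and Hnrpm kept their higher calls in the scanner signals, at 1.42, 0.70 and 1.18. Hnrpa1, which antagonises Srsf1 in splice site choice, was at 0.91 and 1.05 on its downstream probe (limma adjusted p = 0.00317) and at 0.02 and 0.36 on the upstream probe, not called. Hnrpul1, at 0.64 and 0.44 (limma adjusted p = 0.028), and Hnrpc, a binder of uridine tracts, at 0.53 and 0.44 (limma adjusted p = 0.0382), were also called higher, the latter no longer after a further loess or with the variance modelled on intensity. Hnrpd, Hnrph1, Hnrph2, Hnrpr, Hnrpa0 and Hnrpf were not called, with means from -0.34 to 0.23.

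Of the 68 genes 18 had more than 1 measured probe. Between neighbouring probes the 21 differences had a median size of 0.25, against 0.38 over all 649 such pairs in the table. In a test of the difference itself, added after the data had been seen, limma called 0 of 21 pairs, as it did 0 of 649 (0%) over the whole table. The smallest limma adjusted p was 0.0518, and 7 of the 21 (33.3%) had an unadjusted p under 0.05, against 232 of 649 (35.7%). Downstream minus upstream, the differences were -1.28 and -2.07 for Hnrpdl (limma adjusted p = 0.052), 0.91 and 1.86 for Hnrpk (limma adjusted p = 0.0732), -1.28 and -1.46 for Sfrs10 (limma adjusted p = 0.0518) and -1.29 and -1.38 for Sfrs2 (limma adjusted p = 0.0518). In each of these 4 genes both mice differed in the same direction by more than 0.9.

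**Figure D2:**
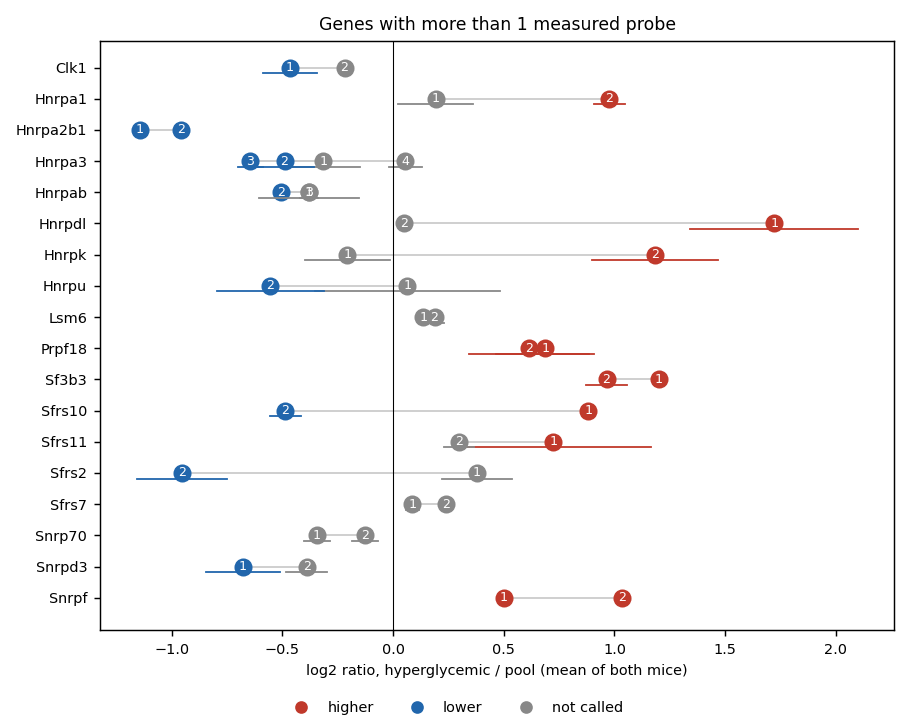
Mean deposited log2 ratios of both mice (x axis) for the 18 genes with more than 1 measured probe (y axis). Each disc is a probe, numbered from upstream to downstream along the gene, the short line under it runs from 1 mouse to the other, and colour gives the call. Probes of Hnrpa2b1, Sf3b3, Snrpf and Prpf18 lie on 1 side of 0 and are called alike, and those of Sfrs10 are called in opposite directions.

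There were 70 pairs of a measured probe, with 1 sign in both mice, and an outside probe of its gene. The outside probe had the same sign in both mice in 16, the other sign in both in 17, and mixed signs or a ratio of 0 in 37. In 61 of the 70 it was dim in Cy5. The measured probe was above 0 in 16 of the 17 pairs with the other sign and in 11 of the 16 with the same sign. Whether dim Cy5 signals had a part in these signs was not tested. For Hnrpdl an outside probe well above background in Cy5 on both arrays was at 1.91 and 1.81, on the side of the called probe. In all, 13 genes had a probe outside the value table with the other sign in both mice, in Agilent's processed ratios. For Sfrs6 the second probe was at -4.12 and -2.002 and was well above background in Cy5 on array 2 only. For Sf3a1 the second probe was at 1.56 and 1.52 and was not well above background in either channel of array 1. For Sf3b3 it was at -0.69 and -0.20, with Cy5 well above background on array 2 only. The others were Clk3, Hnrpc, Hnrpdl, Lsm6, Prpf4b, Sf3b1, Sfrs12, Sfrs2, Sfrs8 and U2af1, where the second probe was not well above background in Cy5 on either array. These ratios rest in part on signals near background and carry no call.

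Called probes had lower median signals than uncalled ones. The mean log2 processed signal had a median of 10.4 for the 29 probes called higher, 10.8 for the 16 called lower and 11.2 for the 44 not called, and of 10.3, 10.6 and 10.5 over all gene probes. Of 14 probes designed on cDNA clones rather than RefSeq mRNAs, 9 were called higher (64.3%) and 1 lower, where 31.5% of 524 such probes in the table were called higher. Of 14 probes whose genome positions span more than 61 bases, as across an intron, 8 were called higher (57.1%) and 1 lower, where 21.5% of 516 such probes were. Whether brightness, clone origin or span had a part in the calls was not tested.

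**Figure D3:**
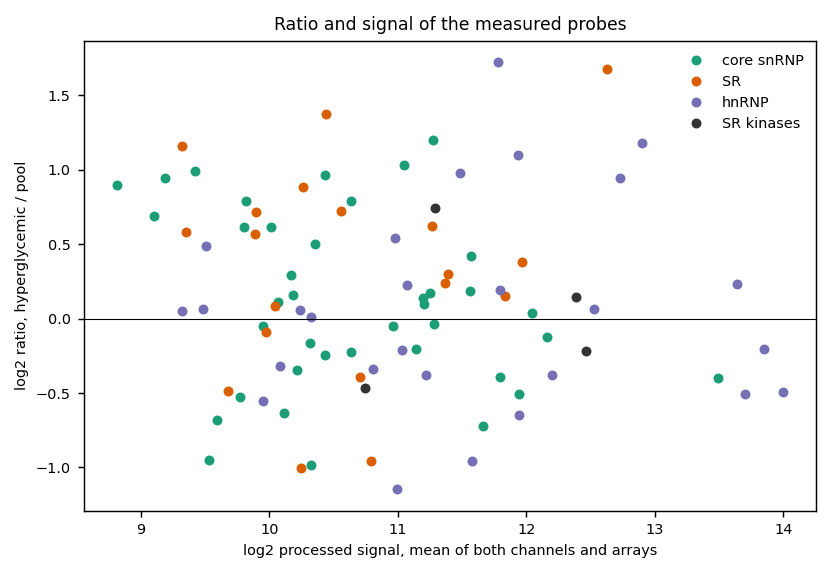
Mean deposited log2 ratio of both mice (y axis) against the mean log2 processed signal over both channels and arrays (x axis) for the 89 measured probes, coloured by family. Probes on both sides of 0 are found over most of the range of signal.

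**Figure D4:**
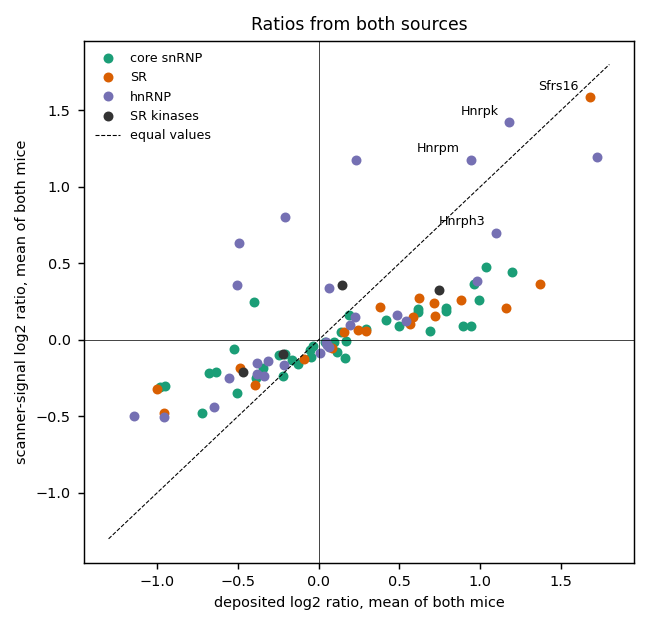
Mean log2 ratio of both mice from the scanner signals (y axis) against that from the deposited table (x axis) for the measured probes, coloured by family, with a dashed line for equal values. Labels mark Sfrs16, Hnrpk, Hnrpm and Hnrph3, called higher in both, and most other probes lie nearer to 0 in the scanner signals.

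Other splicing genes were described from textbook lists. Of their 110 measured probes, of 81 genes, 35 were called higher (31.8%) and 12 lower (10.9%). Of all measured gene probes 25.1% were called higher and 18.4% lower. The median ratio of the 110 probes was 0.10. The exon junction and export proteins had 6 of 10 probes higher and 1 lower, with a median of 0.49. The spliceosomal RNA helicases had 4 of 13 higher and 2 lower, the NTC, Bact and C complex proteins 2 of 11 higher and 1 lower, snRNP proteins outside the name rule 3 of 15 higher and 2 lower, and other splicing factors and RNA-binding regulators 20 of 61 higher and 6 lower. From the scanner signals 8 of 159 probes of these lists were called higher, where 4.77% of all probes were, and 0 lower. The farthest from 0 was Cwc15 (0610040D20Rik in the files), a protein that joins the NTC, at 1.03 and 3.55 (limma adjusted p = 0.0095) and at 1.26 and 1.64 on its probes. Upf3b, which links the exon junction complex to nonsense-mediated decay, was at 2.35 and 1.34, and the cold-inducible protein Cirbp at 1.87 and 1.67. Khsrp, an AU-rich element binding protein, was at 2.08 and 1.42, and the helicase Dhx9 at 1.54 and 1.79. Rbm39 (C79248) was at 1.35 and 1.59, and Wtap, of the m6A methyltransferase complex, at 1.32 and 1.54. Only Rbm10 among these was lower, at -1.47 and -1.34. On all of these called probes both mice lay on the same side of 0. A second measured probe of Rbm39 was at -0.28 and 0.25 and was not called.

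Markers of cell types moved beside the splicing genes in the same arrays. T cell markers were called lower with 7 of 7 probes, with a median ratio of -1.21 and summed signals of 20533 and 31549 in the pool and 8782 and 13247 in the hyperglycemic mice. B cell markers were lower with 5 of 7 probes and higher with 1 (median -0.63), with summed signals of 55372 and 84560 in the pool and 38096 and 54991 in the hyperglycemic mice. Exocrine pancreas markers, from the organ next to the node, were higher with 9 of 13 probes and lower with 3 (median 0.67). Proliferation markers were higher with 1 of 6 and lower with 2, macrophage markers higher with 1 of 6 and lower with 1, and fibroblastic stroma markers higher with 2 of 5 and lower with 1. Of all measured gene probes 25.1% were called higher and 18.4% lower. Of the 10 T cell and 9 B cell marker genes listed, 7 and 5 were measured. The B cell marker called higher was Pax5, at 1.70 and 0.64, and Cd79b was not called. Fewer cells of a type and less RNA per cell cannot be told apart in such bulk samples, and the part of cell makeup in the splicing genes was not tested.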

How the data were processed

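Two-colour Agilent arrays of 2 hyperglycemic mice against 1 pool were used. Per the file headers, Feature Extraction 10.7.3.1 gave the scanner intensity of spots and backgrounds, and the processed intensity after background subtraction, detrending and dye normalization. Its LogRatio is log10 of Cy5 over Cy3, per the file headers. The deposited value table holds log2 ratios by the authors of 5072 gene probes and 26 controls, equal to the log10 ratios times 3.32 with differences above 0.01 for 20 probes. Of the 5072 probes 5068 were well above background in both channels of both arrays. How the authors chose them is not given in the sources used here. Medians were 0.08 and 0.03.

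The deposited log2 ratios were tested without further scaling in limma 3.58.1 (R 4.3.3): the mean of both mice against 0, moderated, two-sided, 1 residual degree of freedom, Benjamini-Hochberg over all probes, called at adjusted p under 0.05. The spread between mice includes technical error. On simulated data the fit was tested for recovery of known changes. Scanner signals were refitted with normexp (offset 50) and loess (span 0.3). The text names each called probe or gene, the extremes of each family, genes with several probes or with opposite probes, and up to 8 other splicing genes, apart from an item not reported here. Probe positions are mm8, from the files. Members and lists were chosen with earlier results of these data known.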

Additional observations from a re-analysis of the deposited data

How the results depend on the processing

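No paired analysis was possible because both mice were set against the same pool. The counts of splicing-family probes called higher and lower (29 and 16 of 89) became 4 and 0 of 110 from scanner signals, 0 and 0 of 110 from processed signals, 17 and 10 of 110 without background correction (all probes 13.3% and 10.3%), 14 and 57 of 110 with scanner signals centred on the median (32.0% and 34.5%), 2 and 0 of 89 with both channels required (2.17% and 0%), 1 and 0 of 195 without a filter (0.0583% and 0%), and 23 and 9 of 68 with the brightest probe of a gene (25.2% and 17.9%). A further loess gave 25 and 17 of 89 (all probes 22.6% and 21.5%). An intensity trend gave 30 and 18 (25.9% and 19.9%), and centring the deposited ratios 29 and 21 (23.8% and 22.0%). Beside these 0 counts in limma, some probes had an unadjusted p under 0.05. They numbered 29 of 110 in the scanner signals (26.4%, against 19.5% of all) and 40 of 110 in the processed signals (36.4%, against 38.4%). With both channels required there were 18 of 89 (20.2%, against 22.9%), and without a filter 49 of 195 (25.1%, against 7.72%). The counts for other splicing genes (35 and 12 of 110) became 8 and 0 of 159 from scanner signals, 0 and 0 of 159 from processed signals, 20 and 9 of 159 without background correction, 40 and 62 of 159 with scanner median centring, 2 and 0 of 110 with both channels required, and 0 and 0 of 302 without a filter. Of the 45 called probes, 4 kept their call in the scanner signals, 39 lost it and 2 changed direction. Of all calls, 90.7% were higher in the scanner signals, and 100% with both channels required or without a filter, against 57.8%. The processed signals had a median of -0.18 over all probes.

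The medians of the SR, core and hnRNP probes (0.38, 0.10 and 0.05) were 0.054, -0.038 and 0.04 from scanner signals, 0.27, -0.048 and 0.03 from processed signals, 0.12, -0.027 and 0.03 without background correction, -0.26, -0.31 and -0.66 with scanner median centring, 0.32, 0.045 and -0.0054 with deposited ratios centred, 0.34, 0.076 and -0.031 after a further loess, 0.10, -0.016 and 0.094 with both channels required, 0.01, -0.013 and -0.0125 without a filter, and 0.57, 0.037 and 0.06 with the brightest probe. Leaving out each mouse in turn gave 0.28 to 0.37, 0.024 to 0.0265 and -0.019 to 0.023.

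Among the 65 member probes that the naming rule covers, directions reversed as follows. A further loess put the downstream Hnrpdl probe at -0.15, and centring the deposited ratios at -0.0054. Without background correction Hnrpa3 was at -0.0356 and 0.10, Hnrpk at 0.25, Sfrs7 at -0.038 and U2af1 at -0.027. From scanner signals, with any of the 3 filters, Hnrpa3 was at -0.0358 and 0.63, Hnrpab at 0.36, Hnrpdl at -0.016, Hnrpk at 0.80, Sfrs7 at -0.052 and U2af1 at -0.12. With scanner median centring, where ratios fell with intensity (Spearman -0.886 across probes), the values were -1.40 for Clk3, -0.50 for Clk4, -1.19 and -0.55 for Hnrpa1, -0.41 for Hnrpa3, -0.59 for Hnrph3, -0.57 for Hnrpk, -0.69 for Hnrpm, -1.45 for Hnrpu, -0.62 for Hnrpul1, -0.85 and -1.06 for Lsm6, -0.27 for Prpf4b, -0.31 and -0.046 for Sf3b3, -0.24 and -0.95 for Sfrs11, -0.17 for Sfrs16, -1.22 for Sfrs2, -0.96 and -0.28 for Sfrs7, -0.64 for Sfrs8, -0.21 and -0.26 for Snrpf and -0.40 for U2af1. Of the other 24 measured probes, none of them called in the deposited ratios, 12 reversed under at least 1 of these settings. From scanner signals Snrpg was at 0.25, Snrpe at -0.016, Hnrpa0 at -0.084, Hnrpr at -0.046, Snrpd1 at -0.077, Lsm7 at -0.011 and Sf3a3 at -0.0095. With scanner median centring Hnrpf was at -1.47, Tra2a at -1.26, Snrpb2 at -0.97, Hnrph2 at -0.71 and Lsm5 at -0.23. The cause was not tested. Signals near background in Cy5 limit the unmeasured probes, and 2 mice limit every value.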
